A study of Homo sapiens with 12 samples.

Results

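The 10 genes described here encode transcription factors and a coactivator that set up or maintain B cell identity: TCF3, EBF1, PAX5, FOXO1, IKZF1, IKZF3, POU2F2, POU2AF1, BCL6 and BACH2. They were taken by gene symbol, with no threshold on measured values, and each matched 1 of the 20318 entries of the expression table. These genes and the lists used below were chosen with earlier results of these data known. Their counts beside the shares of all tested entries are thus descriptions and not tests. All 10 passed the filter on low values, which kept 12722 entries with at least 1 CPM (counts scaled to the size of the library) in at least 3 libraries. RNA was sequenced from Z138, an established human line of mantle cell lymphoma that is wild type per the labels. Cells were kept with 0.5 µM AU-15330 or with its vehicle, DMSO, and harvested at 8 h or 24 h. The compound is a PROTAC, a degrader that brings proteins to the proteasome, and its targets are both ATPases of the SWI/SNF remodellers, SMARCA2 and SMARCA4, together with PBRM1 of the PBAF class. It acts on protein, so the RNA of its targets does not check the treatment, and no protein measurement was used here. The labels list 3 samples in each of the 4 groups, but the descriptions of DMSO replicates 2 and 3 at 8 h name the same column, which the table holds in 2 identical copies. It was counted once and is called replicate 2, so that DMSO at 8 h had n = 2 and each of the other 3 groups n = 3. Nothing in the labels says that replicates were separate cultures, so p-values measure the spread between these libraries, which may be technical. The labels name each time as its own batch, so time and batch cannot be told apart, whereas each treatment comparison lies within 1 batch as labelled. The sources used here do not name the library kit and read layout of each sample, so these could differ within a treatment comparison.

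Levels are normalised counts, on which 59.4 equals 1 CPM, and they were not divided by gene length, so they are compared between groups and not between genes. Changes are differences of log2(normalised count + 60) with their standard error (SE), a scale that understates the change of low genes. Adjusted p-values come from limma fitted to the values as deposited, which are on another scale, so they do not test these changes directly. The Benjamini-Hochberg method was applied over all 12722 tested entries, and the threshold was 0.05. In bulk RNA from 1 line, fewer cells with a transcript and less of it per cell cannot be told apart.

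B cells arise from lymphoid progenitors through a hierarchy of transcription factors. The E protein TCF3 and the forkhead factor FOXO1 switch on EBF1, EBF1 and TCF3 switch on PAX5, and PAX5 then holds the lineage by activating B cell genes and repressing those of other lineages. The zinc finger factor IKZF1 (Ikaros) acts with these factors from the progenitor stage onward, and its relative IKZF3 (Aiolos) acts later in B cell maturation. POU2F2 (OCT2) binds the octamer sequence in B cell promoters and enhancers and recruits the coactivator POU2AF1 (OCA-B). BCL6 and BACH2 are repressors that hold back plasma cell differentiation, in part by repressing PRDM1. Many of these genes carry large enhancers in B cells, and BAF complexes keep chromatin at such elements open.

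The promoters of PAX5 and EBF1 are shown because PAX5 had the largest fall of the 10 genes at 8 h and EBF1, its upstream activator, had its larger fall at 24 h. Each sequence is the 250 bases before the start of the RefSeq gene entry, 5′ to 3′ on the strand of the gene, which is the minus strand for both, from GRCh38.p14. The PAX5 window is chr9:37034269-37034518 and the EBF1 window chr5:159097957-159098206. The PAX5 window lies before the start of the gene as GENCODE release 29 annotates it. The EBF1 window lies inside the EBF1 gene of that annotation, whose start is farther upstream, at position 159099761. Capitals mark matches to any of 9 short motifs searched on both strands.
PAX5: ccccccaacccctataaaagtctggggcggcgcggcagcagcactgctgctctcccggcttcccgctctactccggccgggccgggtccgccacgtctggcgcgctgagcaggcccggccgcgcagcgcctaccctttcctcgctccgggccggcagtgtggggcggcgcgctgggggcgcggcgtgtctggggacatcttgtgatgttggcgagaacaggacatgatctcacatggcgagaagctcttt
EBF1: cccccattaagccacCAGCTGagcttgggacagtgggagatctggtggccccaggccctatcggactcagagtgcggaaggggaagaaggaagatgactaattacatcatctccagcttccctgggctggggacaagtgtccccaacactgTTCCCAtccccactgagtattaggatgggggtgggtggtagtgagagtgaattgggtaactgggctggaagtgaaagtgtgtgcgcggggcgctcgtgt
E proteins such as TCF3 bind E-boxes, and the first form searched was CAGCTG. The second form of the E-box searched for these proteins was CAGGTG. The palindromic EBF1 motif, the octamer of POU2F2, which is ATGCAAAT, and the forkhead motif of FOXO1, which is TGTTTAC, were searched as well. The Ikaros core of IKZF1 and IKZF3 is TGGGAA. The motif used for SPI1 and its relative SPIB was GAGGAAG. For BACH2 and the AP-1 factors, whose sites overlap, it was TGANTCA. The motif used for BCL6 was TTCCTNGAA. The PAX5 window, 69.6% G or C, held 0 matches. The EBF1 window, 57.2% G or C, held the first E-box form at position -235 from the gene start and the Ikaros core, read on the other strand, at position -99. Among 27305 promoter windows of this length, 13.8% held the first E-box form and 21.1% the Ikaros core. The other shares were 17.5% for the second E-box form, 1.08% for the EBF1 motif, 1.66% for the octamer, 2.98% for the forkhead motif, 11.0% for the SPI1 motif, 6.6% for the BACH2 motif and 1.4% for the BCL6 motif. The table had 11 entries for 8 of the 10 genes, and the genes not among them were IKZF3 and POU2AF1. Outside EBF1, matches occurred in entries of IKZF1 and BCL6. BCL6 held the first E-box form and the BACH2 motif, and IKZF1 held the first E-box form, the Ikaros core and, in another entry, the SPI1 motif. A match describes letters in a window and does not show binding.

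AU-15330 lowered the RNA of 7 of the 10 genes at 8 h: PAX5, BACH2, EBF1, IKZF1, FOXO1, POU2AF1 and TCF3. POU2F2 rose, and IKZF3 and BCL6 did not pass the threshold. Of all tested entries, 44.2% passed it at 8 h, 21.4% lower and 22.9% higher. The median change over the 10 genes was -0.32 against 0.02 over all tested entries. At 24 h the same split was found, with 7 genes lower, 1 higher and 2 not past the threshold, against 26.2% lower, 24.7% higher and 50.9% in either direction among all tested entries, where higher calls outnumbered lower ones with quantile normalisation. The median over the 10 genes was then -0.84 against 0.01. In 8 of the 10 genes at 8 h and 9 at 24 h the libraries of AU-15330 and DMSO did not overlap, which was the case for 62.5% and 59.0% of all tested entries.

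**Figure D1:**
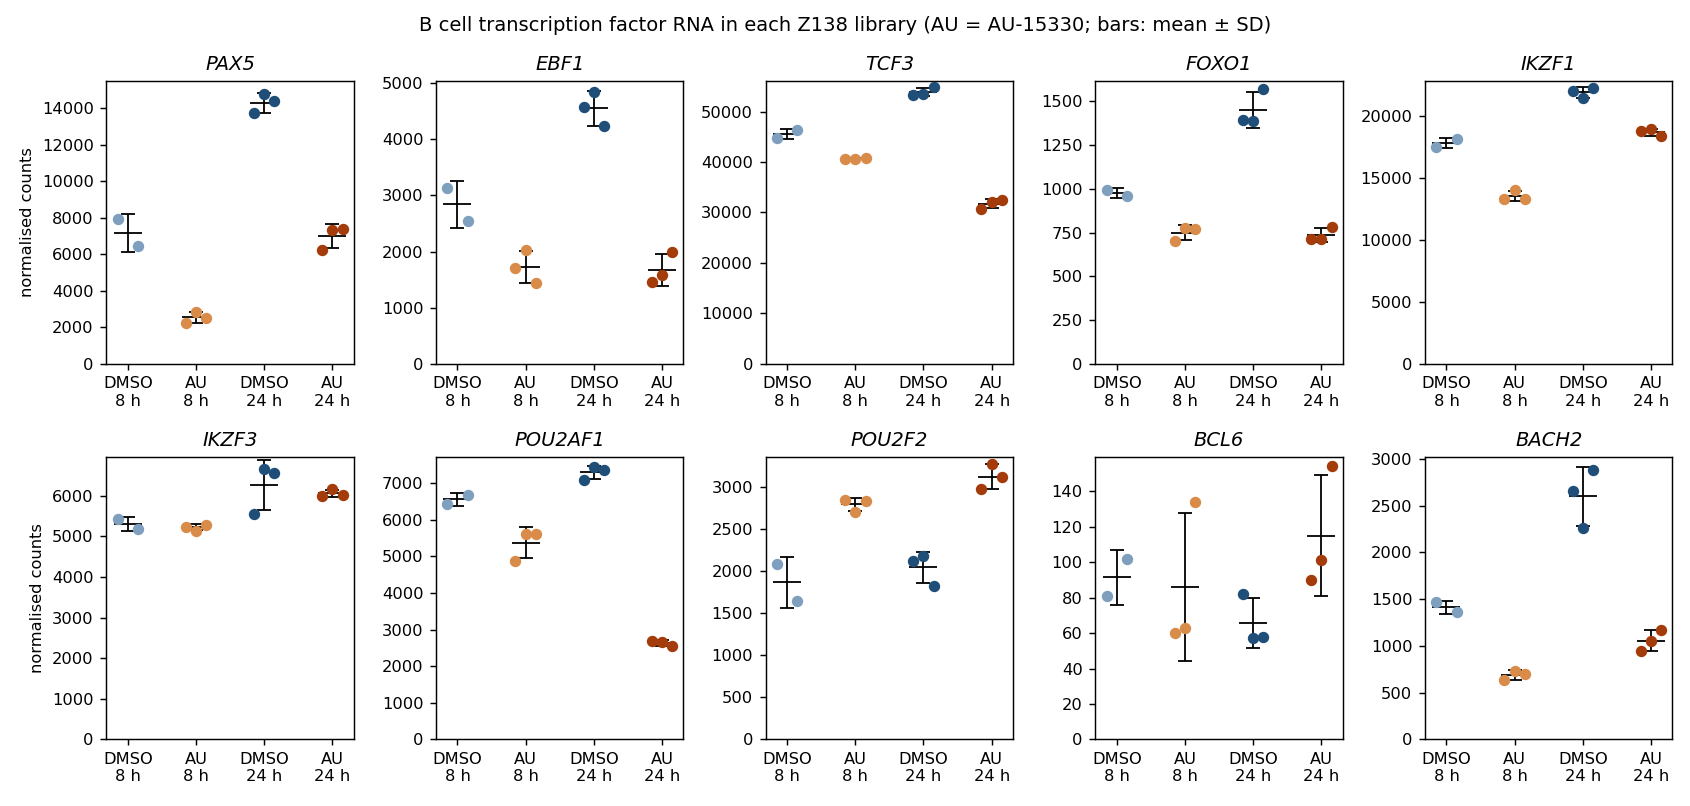
Normalised counts of the 10 genes in each of the 11 libraries, 1 panel per gene, with DMSO and AU-15330 (AU) at 8 h and 24 h on the horizontal axis, points for libraries and bars for the group mean ± SD. In PAX5 and BACH2 all AU-15330 libraries lie below the DMSO libraries of the same time, in POU2F2 they lie above, and in IKZF3 and in BCL6 at 8 h the groups overlap.

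**Figure D2:**
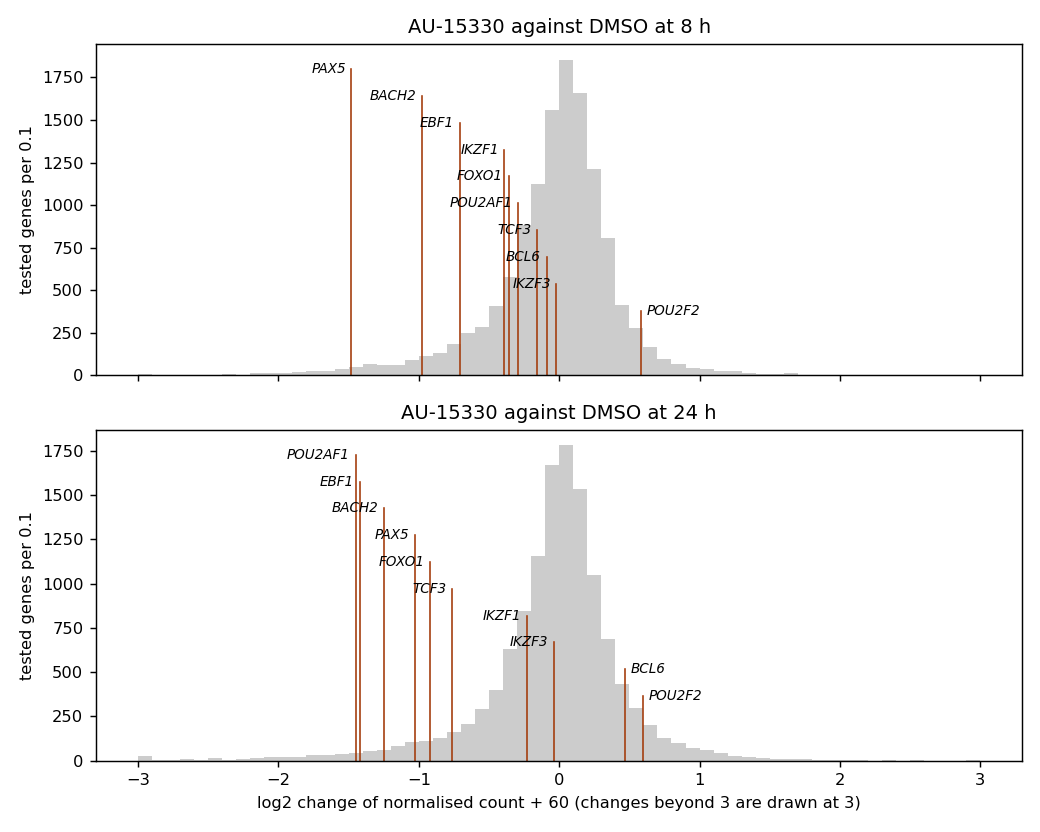
Number of tested genes per 0.1 of log2 change (AU-15330 against DMSO) at 8 h and 24 h, with vertical lines for the 10 genes and changes beyond 3 drawn at 3. The quartiles of all genes are -0.21 and 0.20 at 8 h and -0.22 and 0.20 at 24 h, and PAX5, at -1.48 and -1.03, lies far to the left of them at both times.

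Among the factors of lineage commitment, TCF3 is the E protein at the head of the hierarchy, and its gene lies at chromosome 19, 1609290 to 1652605, minus strand (here and below GRCh38, GENCODE release 29). At 8 h its normalised counts were 44845 and 46344 in the DMSO libraries and 40643, 40643 and 40716 in the AU-15330 libraries. At 24 h they were 53356, 53509 and 54862 in DMSO and 30677, 32173 and 32412 in AU-15330. The groups did not overlap at either time, and the treated libraries of 24 h were the lowest of all. TCF3 was 89.2% of the DMSO mean at 8 h (log2 change -0.16, SE 0.0320, limma adjusted p = 0.00147) and 58.9% at 24 h (-0.76, SE 0.0286, adjusted p = 2.81e-09).

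EBF1 (chromosome 5, 158695916 to 159099761, minus strand) specifies the B cell lineage together with TCF3 and opens chromatin at B cell genes. Its normalised counts at 8 h were 3142 and 2550 in DMSO and 1711, 2024 and 1439 in AU-15330. At 24 h the DMSO libraries had 4584, 4853 and 4233 and the AU-15330 libraries 1454, 1583 and 1996. Treated and vehicle libraries were separate at both times, while the treated libraries of 8 h and 24 h overlapped. EBF1 stood at 60.6% of DMSO at 8 h (-0.71, SE 0.151, adjusted p = 0.00243) and 36.8% at 24 h (-1.42, SE 0.135, adjusted p = 2.56e-06).

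PAX5, which maintains commitment, lies at chromosome 9, 36833275 to 37034185 on the minus strand. The DMSO libraries held 7910 and 6430 normalised counts at 8 h and 13711, 14792 and 14401 at 24 h. The AU-15330 libraries held 2234, 2857 and 2504 at 8 h and 6213, 7302 and 7395 at 24 h. Every treated library was below every vehicle library of its time, but the treated libraries of 24 h overlapped the vehicle libraries of 8 h. PAX5 was lowered to 35.3% of DMSO at 8 h (-1.48, SE 0.111, adjusted p = 1.92e-06) and to 48.7% at 24 h (-1.03, SE 0.0991, adjusted p = 1.81e-06). Of the 12722 tested entries, 181 had a lower change than PAX5 at 8 h and 567 at 24 h.

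FOXO1 (chromosome 13, 40469953 to 40666597, minus strand) is held out of the nucleus by PI3K and AKT signalling and, when nuclear, activates genes such as RAG1 and IL7R. Its normalised counts at 8 h were 996 and 958 in DMSO and 700, 779 and 769 in AU-15330. At 24 h they were 1394, 1387 and 1573 in DMSO and 712, 712 and 783 in AU-15330. The groups were separate at both times, and the treated libraries of both times overlapped. FOXO1 reached 76.7% of DMSO at 8 h (-0.36, SE 0.0815, adjusted p = 0.00535) and 50.7% at 24 h (-0.92, SE 0.0729, adjusted p = 9.41e-07).

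The Ikaros family members differed from each other. IKZF1 (chromosome 7, 50304068 to 50405101, plus strand) encodes a repressor and activator needed for lymphoid development. It had 17533 and 18106 normalised counts in DMSO and 13321, 14020 and 13280 in AU-15330 at 8 h. At 24 h the values were 22029, 21436 and 22290 in DMSO and 18746, 18913 and 18366 in AU-15330. No group of libraries overlapped another, and the treated libraries of 24 h were above the vehicle libraries of 8 h. IKZF1 fell to 76.0% of DMSO at 8 h (-0.39, SE 0.0356, adjusted p = 6.92e-06) and to 85.2% at 24 h (-0.23, SE 0.0318, adjusted p = 9.68e-05).

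IKZF3 (chromosome 17, 39757715 to 39864188, minus strand) acts later in B cell maturation. It had 5418 and 5185 normalised counts in DMSO and 5232, 5138 and 5287 in AU-15330 at 8 h. Its values at 24 h were 5544, 6665 and 6555 in DMSO and 6005, 6165 and 6028 in AU-15330. The groups overlapped at both times. The log2 change was -0.02 at 8 h (95% interval -0.17 to 0.13, adjusted p = 0.823) and -0.04 at 24 h (95% interval -0.17 to 0.09, adjusted p = 0.605). Without DMSO replicate 1 at 24 h, the lowest vehicle library of that time, the 24 h change was -0.12 with an adjusted p of 0.0249.

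**Figure D3:**
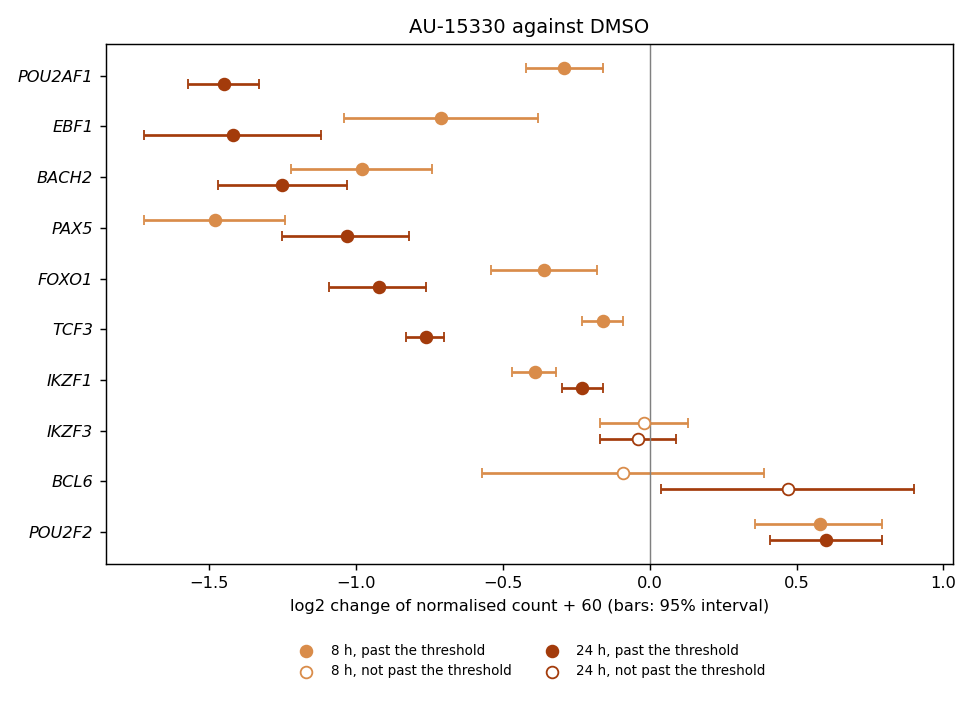
Log2 change of each of the 10 genes under AU-15330 against DMSO at 8 h and at 24 h, with 95% intervals as lines, filled points past the adjusted p threshold of 0.05 and open points not past it. POU2F2 is the only gene of the 10 with filled points on the right at both times, at 0.58 and 0.60, and POU2AF1 moves from -0.29 at 8 h to -1.45 at 24 h.

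The octamer pair moved in opposite directions. POU2F2 (chromosome 19, 42086110 to 42196585, minus strand) encodes the DNA-binding member. It had 2084 and 1649 normalised counts in DMSO and 2841, 2701 and 2839 in AU-15330 at 8 h. At 24 h it had 2121, 2181 and 1828 in DMSO and 2976, 3274 and 3116 in AU-15330. All treated libraries were above all vehicle libraries. POU2F2 was 150% of DMSO at 8 h (0.58, SE 0.0970, adjusted p = 0.000508) and 153% at 24 h (0.60, SE 0.0867, adjusted p = 9.57e-05).

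POU2AF1 (chromosome 11, 111352252 to 111455630, minus strand) encodes the coactivator that gives the octamer factors their B cell activity. It had 6443 and 6692 normalised counts in DMSO and 4881, 5620 and 5619 in AU-15330 at 8 h. Its counts at 24 h were 7102, 7440 and 7366 in DMSO and 2681, 2670 and 2554 in AU-15330. The treated libraries of 24 h formed the lowest group, well below those of 8 h, and no groups overlapped. POU2AF1 was 81.8% of DMSO at 8 h (-0.29, SE 0.0608, adjusted p = 0.00205) and 36.1% at 24 h (-1.45, SE 0.0544, adjusted p = 4.01e-09).

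BACH2 (chromosome 6, 89926529 to 90296908, minus strand) is the first of the repressors of plasma cell differentiation. It had 1464 and 1363 normalised counts in DMSO and 631, 733 and 699 in AU-15330 at 8 h. At 24 h it had 2651, 2264 and 2879 in DMSO and 947, 1054 and 1166 in AU-15330. Its 4 groups did not overlap. BACH2 was 48.7% of DMSO at 8 h (-0.98, SE 0.11, adjusted p = 0.000101) and 40.6% at 24 h (-1.25, SE 0.0987, adjusted p = 9.09e-07).

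BCL6 (chromosome 3, 187721377 to 187745727, minus strand), the germinal centre repressor, was near the detection filter, with group means of 1.10 to 1.93 CPM. Its normalised counts at 8 h were 81 and 102 in DMSO and 60, 63 and 134 in AU-15330. At 24 h they were 82, 57 and 58 in DMSO and 90, 101 and 154 in AU-15330. The groups overlapped at 8 h and were separate at 24 h. The log2 change was -0.09 at 8 h (95% interval -0.57 to 0.39, adjusted p = 0.793) and 0.47 at 24 h (95% interval 0.04 to 0.90, adjusted p = 0.0701). The 24 h change had an adjusted p under the threshold in 4 of 16 alternatives, for example 0.0378 with library medians centred.

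The effect of AU-15330 at 24 h minus that at 8 h was tested as an interaction, and 5 of the 10 genes passed, 1 higher and 4 lower, against 18.5%, 7.54% and 11.0% of all tested entries. The median over the 10 genes was -0.15 and over all tested entries -0.02. POU2AF1 had the lowest difference at -1.16 (SE 0.0816, adjusted p = 1.64e-05). TCF3 had -0.60 (SE 0.0429, adjusted p = 1.38e-05) and FOXO1 -0.57 (SE 0.109, adjusted p = 0.00362). EBF1 had -0.71 (SE 0.203, adjusted p = 0.0167), which without DMSO replicate 2 at 8 h was -0.56 with an adjusted p of 0.079. With all libraries in the fit, the falls against DMSO in these 4 genes were thus larger at 24 h. From 8 h to 24 h, EBF1 and FOXO1 changed by -0.04 and -0.02 under AU-15330 and by 0.67 and 0.54 in DMSO. POU2AF1 and TCF3 changed by -1.01 and -0.36 under AU-15330 and by 0.15 and 0.24 in DMSO. Time and batch cannot be told apart in these values.

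IKZF1 went the other way, with a difference of 0.16 (SE 0.0478, adjusted p = 0.0437), and lost this call in 12 of 21 alternatives, 9 of them with 1 library left out (adjusted p of those fits 0.0588 to 0.142). Without DMSO replicate 2 at 8 h, 3 of the 10 genes passed the test of the difference. For PAX5 the difference was 0.45 on the log2 scale (95% interval 0.12 to 0.77), but the test, which was made on the deposited scale, gave an adjusted p of 0.324. For BACH2 it was -0.27 (adjusted p = 0.0572), past the threshold in 3 of 21 alternatives, with quantile normalisation (adjusted p = 0.0486), without DMSO replicate 2 at 24 h (0.0136) and without AU-15330 replicate 3 at 24 h (0.0406). POU2F2 had a difference of 0.02 (95% interval -0.26 to 0.31, adjusted p = 0.843), IKZF3 -0.02 (95% interval -0.22 to 0.18, adjusted p = 0.910) and BCL6 0.55 (95% interval -0.09 to 1.20, adjusted p = 0.229).

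The levels of the 10 genes also differed between the times. In DMSO, 6 of the 10 were higher at 24 h than at 8 h and 0 were lower, against 10.1% of all tested entries in either direction, 6.56% higher and 3.56% lower. Groups did not overlap in 8 of the 10 genes and in 42.4% of all tested entries. The median was 0.27 against 0.01. PAX5 changed most, by 1.00 (SE 0.111, adjusted p = 9.22e-05), followed by BACH2 at 0.85 (adjusted p = 0.000534), EBF1 at 0.67 (adjusted p = 0.00747), FOXO1 at 0.54 (adjusted p = 0.00134), IKZF1 at 0.30 (adjusted p = 0.000476) and TCF3 at 0.24 (adjusted p = 0.000900). EBF1 lost the call without DMSO replicate 2 at 8 h (0.53, adjusted p = 0.081). For IKZF3 (0.23, adjusted p = 0.0536), POU2AF1 (0.15, adjusted p = 0.120), POU2F2 (0.13, adjusted p = 0.462) and BCL6 (-0.27, adjusted p = 0.503) the threshold was not reached. IKZF3 passed without DMSO replicate 1 at 24 h (0.32, adjusted p = 0.00266).

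Under AU-15330, 4 of the 10 genes were higher at 24 h than at 8 h and 2 lower, against 39.4% of all tested entries in either direction, 18.3% higher and 21.1% lower. Groups did not overlap in 7 of the 10 genes and in 49.5% of all tested entries, and the median was 0.18 against -0.01. PAX5 rose by 1.44 (SE 0.0991, adjusted p = 2.35e-06), BACH2 by 0.57 (adjusted p = 0.00325), IKZF1 by 0.46 (adjusted p = 1.91e-06) and IKZF3 by 0.21 (adjusted p = 0.0163). POU2AF1 fell by 1.01 (SE 0.0544, adjusted p = 5.78e-07) and TCF3 fell by 0.36 (adjusted p = 5.27e-06). EBF1 (-0.04, 95% interval -0.34 to 0.26) and FOXO1 (-0.02, 95% interval -0.18 to 0.14) did not pass, nor did POU2F2 (0.16, adjusted p = 0.135) and BCL6 (0.28, adjusted p = 0.291). IKZF3 lost its call without AU-15330 replicate 2 at 24 h (adjusted p = 0.0527), and BCL6 gained one without AU-15330 replicate 3 at 8 h (0.51, adjusted p = 0.0423). These comparisons share libraries with the treatment comparisons and are not independent of them.

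**Figure D4:**
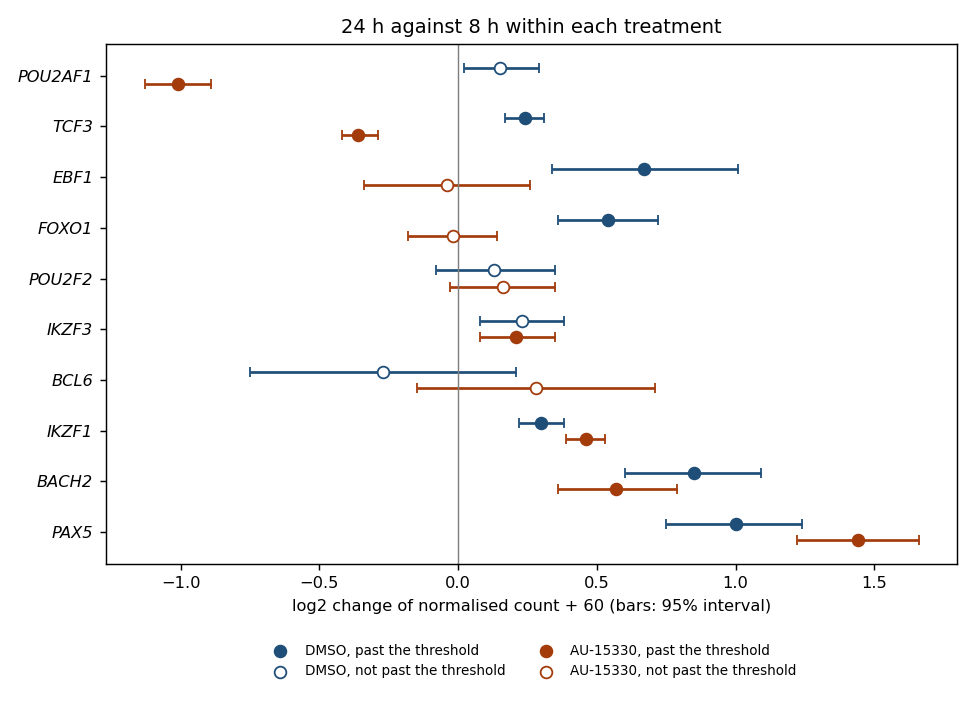
Log2 change of each of the 10 genes from 8 h to 24 h within DMSO and within AU-15330, with 95% intervals as lines and filled points past the adjusted p threshold of 0.05. PAX5 lies on the right in both, at 1.00 and 1.44, while POU2AF1 is at 0.15 in DMSO and at -1.01 under AU-15330.

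DMSO at 24 h was the group with the highest mean for 8 of the 10 genes, and AU-15330 at 24 h for POU2F2 and BCL6. For PAX5 the order was DMSO at 24 h, DMSO at 8 h, AU-15330 at 24 h and AU-15330 at 8 h, and the second and the third overlapped. BACH2 had the same order without overlap, and in IKZF1 the middle groups were exchanged. TCF3, POU2AF1, EBF1 and FOXO1 had both vehicle groups on top and AU-15330 at 24 h lowest. The treated groups of EBF1 and FOXO1 overlapped, and those of TCF3 and POU2AF1 did not. POU2F2 had the treated groups on top, its vehicle groups overlapping, and IKZF3 was ordered by time with overlap within each time. All neighbouring groups overlapped in BCL6.

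Pearson's r across the 11 libraries, computed on the deposited log2 scale, is given as a description, since libraries of a group share treatment and batch. Among the 10 genes, PAX5 and IKZF1 had an r of 0.98, TCF3 and POU2AF1 0.96, EBF1 and FOXO1 0.96, and FOXO1 and BACH2 0.96, while TCF3 and POU2F2 had -0.84. Among all other tested genes with a symbol, the pattern of PAX5 was most like that of the integrin gene ITGA4 (0.987) and the endoplasmic reticulum chaperone gene HSPA5 (0.987). IKZF1 was closest to HSPA5 (0.992) and ABRAXAS1 (0.990), EBF1 to COL9A1 (0.987) and FLT1 (0.984), and FOXO1 to STS (0.994) and FCMR (0.987). BACH2 was closest to SNTB1 (0.987) and the B cell kinase gene BLK (0.985), TCF3 to MYBPH (0.994) and ARHGEF6 (0.986), and POU2AF1 to PDLIM1 (0.996) and PSME1 (0.994). POU2F2 was closest to ZNF280B (0.982) and RHNO1 (0.976). The highest values were lower for IKZF3 (GAREM2, 0.906, and APOBEC3F, 0.897) and for BCL6, where both genes, RPL24P2 (0.911) and RPS3AP44 (0.874), are ribosomal protein pseudogenes.

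Close relatives of the 10 genes were measured in the same libraries, and 12 of 17 were tested. At 8 h and again at 24 h, 1 was higher, 4 were lower and 7 were not past the threshold, with medians of -0.18 and -0.11. Of all tested entries, 44.2% passed at 8 h and 50.9% at 24 h. The counts of relatives, and those of the lists that follow, are to be read beside these shares. IKZF2 (Helios) fell by 0.61 at 8 h (adjusted p = 7.26e-05) and by 0.30 at 24 h (adjusted p = 0.00245), and IKZF4 (Eos) rose by 0.82 (adjusted p = 0.000452) and 0.72 (adjusted p = 0.000409). FOXO3 fell by 0.40 at 24 h (adjusted p = 0.000245), and its 8 h change of -0.19 (adjusted p = 0.0399) lost the call when any 1 of 4 of the 5 libraries of that time, all but AU-15330 replicate 2, was left out (adjusted p = 0.0565 to 0.228). The low-count genes FOXO6 (-2.31 and -1.37, adjusted p = 9.04e-08 and 1.73e-06) and BCL6B (-1.09 and -0.67, adjusted p = 0.000130 and 0.00152) were lower at both times. FOXO6 has 2 entries in the table, so its reads may be shared.

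The relatives that bind the same sites as TCF3, POU2F2 and BACH2 did not pass at either time in the fit described above. TCF4 had changes of -0.23 and -0.21, TCF12 of 0.15 and -0.16, POU2F1 of 0.24 and 0.10, and BACH1 of -0.17 and 0.03. FOXO4 (-0.02 and 0.26), IKZF5 (-0.18 and -0.06) and PAX8 (0.16 and 0.10) did not pass either. POU2F1 passed at 8 h with a replicate block in which the second DMSO library was numbered 3 (0.27, adjusted p = 0.0345). With 1 library left out, POU2F1 passed at 8 h without AU-15330 replicate 1 (0.35, adjusted p = 0.0426), BACH1 at 8 h without AU-15330 replicate 2 (-0.26, adjusted p = 0.05 after rounding up) and TCF12 at 24 h without AU-15330 replicate 3 (-0.26, adjusted p = 0.0323).

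Other B cell transcription factors, 22 of 22 tested, were 6 higher, 9 lower and 7 not past the threshold at 8 h, and 4 higher, 13 lower and 5 not past it at 24 h. Their medians were -0.24 and -0.64. SPI1 (PU.1), an ETS factor of myeloid and B cells, had a mean of 188 ± 30.6 normalised counts (SD, n = 3) in AU-15330 against 1141 ± 97.3 (n = 2) in DMSO at 8 h, a change of -2.28 (SE 0.111, adjusted p = 2.74e-08), and of -2.91 at 24 h (adjusted p = 1.17e-09). Its close relative SPIB rose instead, from 10157 ± 84.0 (n = 2) to 36188 ± 3697 (n = 3) at 8 h, a change of 1.82 (SE 0.0757, adjusted p = 2.36e-08), and by 1.41 at 24 h (adjusted p = 2.02e-08). FLI1 (-1.47 and -1.79) and STAT6 (-1.31 and -1.27) fell at both times.

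Of cofactors and antagonists, 21 of 24 were tested, with 4 higher and 6 lower at 8 h, 6 higher and 8 lower at 24 h, and medians of -0.05 and -0.06. ID2 and ID3 encode inhibitors that bind E proteins such as TCF3. ID2 fell, with changes of -1.28 and -1.86 (adjusted p = 3.56e-05 and 8.06e-07). ID3 had -0.10 at 8 h (adjusted p = 0.208) and fell by 0.75 at 24 h (adjusted p = 3.75e-07). Like FOXO6, ID3 has 2 entries in the table, so its reads may be shared. MAFG, a partner of BACH proteins, fell by 0.65 at 8 h (adjusted p = 3.68e-06) and by 0.18 at 24 h (adjusted p = 0.00975), the latter not past the threshold with quantile normalisation (adjusted p = 0.0509). PRDM1, which encodes the plasma cell factor BLIMP1, rose by 1.25 at 8 h (adjusted p = 8.16e-06) and by 1.13 at 24 h (adjusted p = 6.48e-06). Its means were 3669 ± 436 normalised counts (SD, n = 3) in AU-15330 and 1503 ± 93.5 (n = 2) in DMSO at 8 h.

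Genes known to be activated or repressed by the 10 factors were taken as lists, which share genes, among them PRDM1, CCL3, CIITA, SPIB, ID3 and CDKN1B. For comparison with each list, 21.4% of all tested entries were lower and 22.9% higher at 8 h, and 26.2% and 24.7% at 24 h. Of 13 tested genes activated by PAX5 and EBF1, 10 were lower and 2 higher at 8 h, and 11 were lower and 2 higher at 24 h, with medians of -0.79 and -1.81. CD79B, a signalling chain of the B cell receptor, had changes of -1.63 (SE 0.0743, adjusted p = 2.03e-08) and -2.23 (SE 0.0665, adjusted p = 3.75e-10). The surrogate light chain gene IGLL1 had -0.63 and -1.91, the B cell surface receptor gene CD72 -2.01 and -2.49, and VPREB3 -1.75 and -3.24, all past the threshold.

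Of 7 tested genes activated by POU2F2 with POU2AF1, 4 were lower and 1 higher at 8 h and 5 were lower and 2 higher at 24 h, with medians of -0.60 and -1.19. BTK, the kinase downstream of the B cell receptor, had -1.15 (SE 0.0706, adjusted p = 1.17e-07) and -2.50 (SE 0.0632, adjusted p = 2.07e-10). MS4A1, which encodes CD20, had -0.87 and -1.75, and TNFRSF13C, which encodes the BAFF receptor, had -1.74 and -1.54, all past the threshold. SPIB was the gene of this list that rose at 8 h.

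Of 9 tested genes activated by FOXO1 or TCF3, 3 were higher and 3 lower at 8 h and 2 higher and 3 lower at 24 h, with medians of -0.08 and -0.10. The chemokine receptor gene CCR7 fell, with -3.24 (SE 0.0906, adjusted p = 1.06e-09) and -2.46 (SE 0.0810, adjusted p = 3.82e-10), and the sphingosine phosphate receptor gene S1PR1 rose by 0.70 and 1.24. CDKN1B, an inhibitor of cell cycle kinases, fell by 0.51 at 8 h and had -0.13 at 24 h (adjusted p = 0.0579), where it passed without DMSO replicate 2 (-0.17, adjusted p = 0.0421) or AU-15330 replicate 3 (-0.16, adjusted p = 0.0447).

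Of 10 tested genes repressed by BACH1 or BACH2, 4 were higher and 2 lower at 8 h, and 6 were higher and 0 lower at 24 h, with medians of 0.22 and 0.14. Besides PRDM1, the oxidative stress genes HMOX1 (0.15 at 8 h, adjusted p = 0.395, and 2.60 at 24 h, adjusted p = 4.35e-09), SRXN1 (0.52 and 0.84, adjusted p = 0.000117 and 5.77e-07) and SLC7A11 (0.35 at 8 h, adjusted p = 0.102, and 1.14 at 24 h, adjusted p = 2.60e-05) were in this list. SLC7A11 passed at 8 h without AU-15330 replicate 2 (0.51, adjusted p = 0.0137). HMOX1 had 1425 ± 114 normalised counts in AU-15330 and 186 ± 25.9 in DMSO at 24 h (SD, n = 3 each).

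Of 17 tested genes repressed by BCL6, 8 were lower and 5 higher at 8 h and 11 lower and 3 higher at 24 h, with medians of -0.17 and -0.34. GPR183, a receptor that guides B cells to follicle borders, fell, with -2.40 (SE 0.0987, adjusted p = 6.12e-09) and -4.22 (SE 0.0883, adjusted p = 1.13e-10). The costimulatory gene CD80 fell (-1.54 and -1.97), and IRF4 rose by 0.39 at 8 h (adjusted p = 7.10e-06) and fell by 0.71 at 24 h (adjusted p = 1.74e-08).

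Of 6 tested genes repressed by PAX5, 2 were higher and 3 lower at 8 h and 2 higher and 4 lower at 24 h, with medians of -0.18 and -0.77. The higher ones were PRDM1 and the T cell costimulator gene CD28, at 102 ± 55.0 normalised counts in AU-15330 (n = 3) and 19.8 ± 9.1 in DMSO (n = 2) at 8 h and at 491 ± 19.6 and 30.4 ± 14.3 (n = 3 each) at 24 h, with changes of 0.97 (adjusted p = 0.00557) and 2.62 (adjusted p = 5.04e-07). The 8 h call for CD28 was lost without DMSO replicate 2 (0.86, adjusted p = 0.0540). NOTCH1 (-0.92 and -0.96) and XBP1 (-0.74 and -0.83) fell at both times. CCL3, which has 3 entries in the table, had 0.18 at 8 h (adjusted p = 0.399) and fell by 2.43 at 24 h (adjusted p = 3.72e-08).

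Of 4 tested genes repressed by IKZF1 or IKZF3, 3 were lower and 1 higher at 8 h and 4 were lower at 24 h, with medians of -0.66 and -1.10. IGLL1 is in this list too. CCND3 fell (-0.69 and -0.76), as did CDK6 (-1.29 and -1.43), where the 8 h value of CDK6 ranged from -1.72 to -0.86 with 1 library left out, both ends from leaving out a DMSO library. MYC rose by 0.35 at 8 h (adjusted p = 1.34e-06) and fell by 0.19 at 24 h (adjusted p = 4.93e-05).

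**Figure D5:**
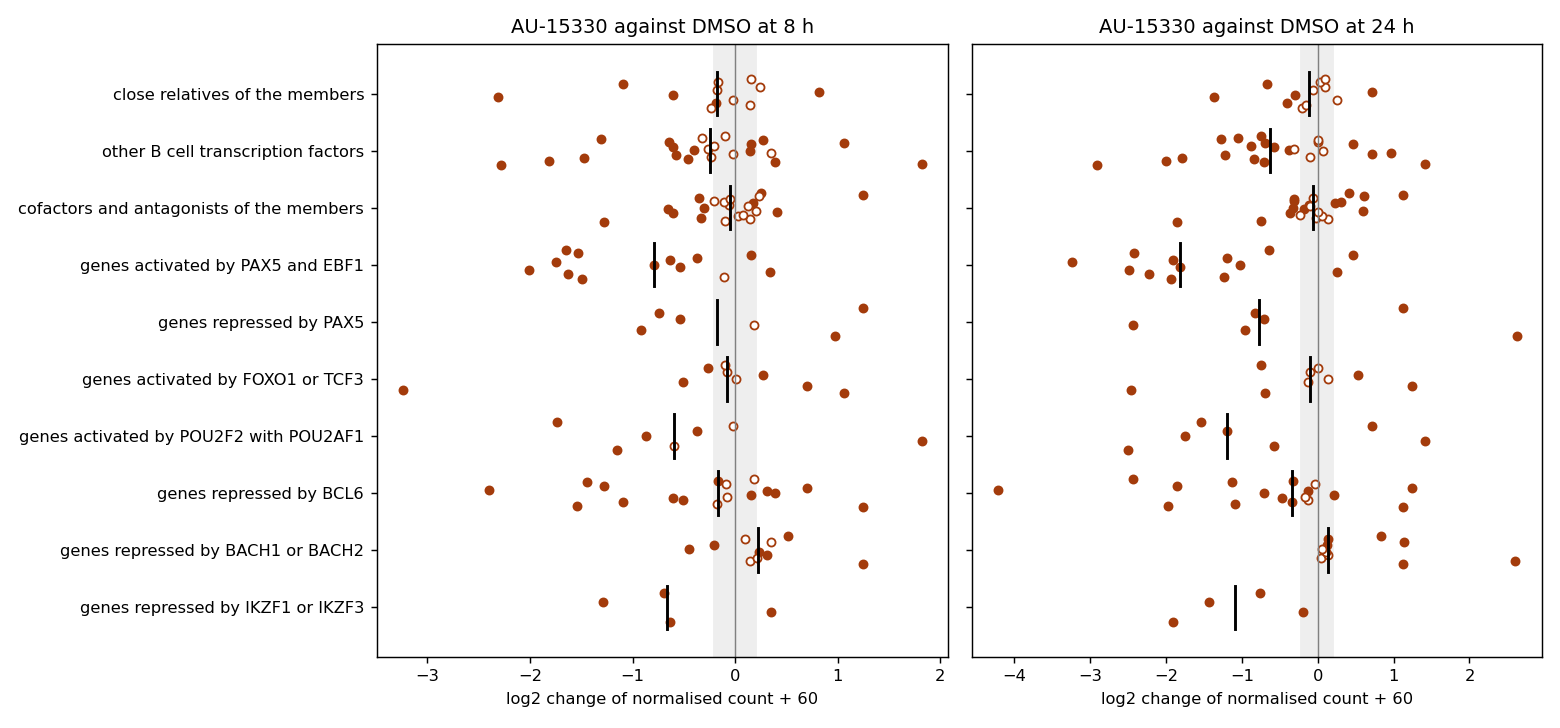
Log2 change of each tested gene (points) and the median (vertical bars) of 10 gene lists around the 10 factors, under AU-15330 against DMSO at 8 h and at 24 h. The list of genes activated by PAX5 and EBF1 has medians of -0.79 and -1.81, and the list of genes repressed by BACH1 or BACH2 has medians of 0.22 and 0.14.

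Estimated total counts were 50745720 to 67596093 per library, and normalised totals were 57824748 to 60768297. The line expressed its defining genes CCND1, at group means of 2540 to 2800 CPM, and SOX11, at 85.1 to 190 CPM, while CD5, a marker of mantle cell lymphoma, was at most 0.0491 CPM in any library. Of 5 B cell markers all 5 passed the filter, and their summed level was 811 to 825 CPM in DMSO and 457 to 512 in AU-15330 at 8 h, and 1010 to 1030 and 298 to 309 at 24 h. Of 6 T cell markers, 1 passed, CD3G, and the sum was 13.4 to 13.6 CPM in DMSO and 4.36 to 5.81 in AU-15330 at 8 h, and 13.7 to 14.5 and 2.02 to 2.46 at 24 h. Of 6 myeloid markers, 1 passed, CD68, with sums of 1.93 to 2.13 and 2.42 to 2.66 CPM at 8 h and 1.96 to 2.44 and 3.42 to 4.42 at 24 h. The 3 plasma cell markers all passed, with sums of 1640 to 1790 CPM in DMSO and 1080 to 1300 in AU-15330 at 8 h, and 2270 to 2430 and 1420 to 1580 at 24 h. JCHAIN made up most of this sum, with a mean of 1110 CPM under the compound against 1610 under vehicle at 8 h. The JCHAIN means of 24 h were 1370 CPM under the compound against 2240 under vehicle. TNFRSF17 had lower means with the compound as well, 29.4 against 43.4 CPM at 8 h and 38.2 against 53.6 at 24 h. For SDC1 the libraries of 8 h overlapped (compound 70.0 to 73.4 CPM, vehicle 64.8 to 71.4). Those of 24 h were higher with the compound, at 72.7 to 77.4 CPM against 56.8 to 64.8. Of 3 erythroid markers 0 passed, and their sum was at most 0.105 CPM in any library. The part of these levels in the changes of the 10 genes was not tested.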

How the data were processed

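RNA of 12 labelled samples was deposited as 1 table of 20318 gene entries. The submitters' processing notes name the build GRCh38.p13, kallisto 0.46.1, DESeq2 1.24.0, Trimmomatic 0.40 and R 4.3.2, and the labels' protocols add FastQC 0.11.9. Reads were 50 bases from either of 2 kinds of TruSeq kit, paired-end or single-end, and the sources used here name neither the kit and read layout of each sample nor the use of strand: antisense and overlapping genes are thus uncertain. Each of the 10 genes overlaps at least 1 other annotated gene.

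The values deposited by the authors are on a log2 scale. They start at 10.36053 in every library and reach 20.152. This has the form that variance stabilisation gives to normalised counts, not the log CPM form that the planned design allowed for. Inverting the transform gave normalised counts. Between 53.9% and 56.0% of low values were within 0.02 of whole counts, so no count model was used. A doubling is 0.163 on the deposited scale at 100 normalised counts, 0.461 at 1000 and 0.852 at 10000. Folds are therefore given on log2(normalised count + 60).

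Of 12 value columns, 1 was an identical copy and was not used. A linear model with 1 mean per group over 11 libraries was fitted in limma 3.58.1 (R 4.3.3, mean-dependent prior) on the deposited scale, with Benjamini-Hochberg adjustment over 12722 entries. Other steps used pandas 2.3.3 and NumPy 2.4.6 under Python 3.11.15, and Matplotlib 3.10.9 drew the figures. The fitting was tested on simulated data. Coordinates came from GENCODE release 29, which matched 18573 entries, and promoters from RefSeq. The largest-mean entry was used for a repeated symbol.

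The 10 genes and all lists were chosen with earlier results of these data known. Named are the 10 genes, their tested relatives, the 4 genes of each list with the smallest p in either treatment comparison, and for each of the 10 the 2 genes with the highest r. Marker genes are named besides. Alternatives were other filters, scalings, log scales, samples in the fit, variance priors, a replicate block, another entry for a repeated symbol and each library left out.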

Additional observations from a re-analysis of the deposited data

Results flagged for a closer look

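By the test of the difference itself, the effect of AU-15330 differed between 24 h and 8 h for 5 of the 10 genes. It also differed for 21 of the other genes named from the lists, which include the relatives. Genes named only for their r or as markers were not counted. Of all tested entries, 18.5% passed this test. Apart from the relatives, these other genes were picked for a small p in a treatment comparison, which shares libraries with this test. Their number is thus in part a product of that choice. Time and batch cannot be told apart in these differences. The test was made on the deposited scale, where the size of a given fold depends on the level of the gene. The log2 values that follow were thus not themselves tested. In log2 units, 24 h minus 8 h, EBF1 had -0.71, TCF3 -0.60, FOXO1 -0.57, IKZF1 0.16 and POU2AF1 -1.16. Among genes activated by these factors, BTK had -1.35, MS4A1 -0.89, CD72 -0.47, CD79B -0.60, IGLL1 -1.28, VPREB3 -1.49, CCR7 0.78, S1PR1 0.54, CDKN1B 0.37 and ID3 -0.66. Among genes repressed by them, CCL3 had -2.61, CD28 1.65, GPR183 -1.82, IRF4 -1.10, MYC -0.54, HMOX1 2.45, SLC7A11 0.79 and SRXN1 0.32. IGLL1 and CDKN1B are also in lists of repressed genes. Of relatives and partners, FOXO6 had 0.94 and MAFG 0.47. SPIB, listed with other B cell transcription factors and with genes activated by POU2F2 with POU2AF1, had -0.41. Among the 10 genes, IKZF1 lost the call in 12 of 21 alternatives, 9 of them with 1 library left out. EBF1 lost it in 1, without DMSO replicate 2 at 8 h (-0.56). SPIB lost the call in 9 alternatives, 7 of them with 1 library left out. SRXN1 lost it in 7, 5 of them with 1 library left out. On log2(CPM + 1), CD72 lost it (-0.47, adjusted p = 0.0575), while SPI1 (-0.64, adjusted p = 0.0147) and IKZF2 (0.31, adjusted p = 0.0492) gained it. Without DMSO replicate 1 at 8 h, CCR7 (0.74, adjusted p = 0.0550) and SLC7A11 (0.60, adjusted p = 0.0735) lost it, and without DMSO replicate 2 at 8 h, CDKN1B did (0.30, adjusted p = 0.0664).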

How the results depend on the processing

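No value past the threshold changed sign. All 8 calls among the 10 genes in each treatment comparison held in every alternative at 8 h and at 24 h. Over all comparisons of the 10 genes, 839 values under an alternative kept their call, 15 lost one and 11 gained one, and for the other named genes 2273 kept, 29 lost and 17 gained. With 1 library left out, the difference between the effects was past the threshold for 3 to 6 of the 10 genes and for 1571 to 2414 of all tested entries, the lowest of both without DMSO replicate 2 at 8 h. DMSO at 24 h against 8 h then had 659 to 891 entries against 1287, with 688 without DMSO replicate 1 at 8 h, 659 without replicate 2 and 851 without DMSO replicate 1 at 24 h. Leaving out a library of DMSO at 8 h leaves 1, which is assumed to vary like the other groups. Quantile normalisation moved the share of lower calls from 59.3% (1400 lower, 959 higher) to 48.4% (971 and 1036) for the difference and from 35.2% (453 and 834) to 47.4% (635 and 704) for DMSO over time. For the treatment comparison at 24 h the share went from 51.4% (3332 and 3145) to 43.0% (2913 and 3855) with quantile normalisation and to 46.3% (3079 and 3577) with library medians centred. BCL6 was not tested at a filter of 5 CPM.

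Deviations from the group means were correlated between AU-15330 and DMSO libraries of the same time. At 24 h, r was 0.041, 0.030 and 0.045 for same-numbered libraries and -0.060 to 0.019 for libraries with different numbers. At 8 h the 2 DMSO libraries deviate by equal and opposite amounts, and the number of the second was assigned here. Those values therefore cannot show whether samples are paired. Whether replicate numbers pair samples was not settled, and the main fit had no block. With the replicate block, 8, 9, 4, 6 and 6 of the 10 genes were past the threshold at 8 h, at 24 h, for the difference, for AU-15330 over time and for DMSO over time, and 5438, 6454, 2113, 4996 and 1082 of all tested entries. A block with the second DMSO library of 8 h numbered 3 was added after the data were seen. The fit within a comparison's own groups is the same as the fit to all groups for the difference.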
